A study of Mus musculus with 2 samples.

Results

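The *Vgll3* knockdown libraries were read for 10 genes of the insulin-like growth factor (IGF) axis: the IGF-binding protein (IGFBP) genes *Igfbp2*, *Igfbp3*, *Igfbp4*, *Igfbp5*, *Igfbp6* and *Igfbp7*, the ligand gene *Igf1*, the receptor genes *Igf1r* and *Igf2r*, and *Pappa*, a protease gene. They were found by gene symbol among the 24532 genes of the count table, and all 10 were present there and in the TPM tables. The set was chosen partly from these data, since *Igfbp5* was picked for its large fall after *Vgll3* knockdown, so its difference is a description. The cells were cardiac myofibroblasts of C57BL/6 mice, of the substrain C57BL/6J by the study's methods for isolated myofibroblasts. They were made from infarcted hearts 3 days after myocardial infarction (MI) as the CD45-negative fraction of a magnetic sort, and the study's infarction model used young adult male mice. They were grown in DMEM with serum and transfected by lipid reagent with 12.5 nM of a control siRNA (siCtrl) or of 1 siRNA against *Vgll3* (siVgll3), and total RNA was collected after 72 h for libraries of mRNA. Neither group was left untransfected, and a lone siRNA stands for the knockdown. Each condition has 1 library, so no difference below has a replicate check, no p-value is given, and the siRNA cannot be told apart from any other difference between the 2 cultures. In such bulk samples, fewer cells of a type and less RNA per cell cannot be told apart either.

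IGF ligands act through the receptor tyrosine kinase encoded by *Igf1r*, which signals through receptor adaptors to PI3K, AKT and mTOR and supports growth and survival of cells. In the extracellular space most IGF is held by IGFBPs, which can withhold it from the receptor or, once bound to matrix or cleaved, deliver it. Proteases such as PAPP-A cut the binding proteins and free the ligand, and the receptor encoded by *Igf2r* takes up IGF2 for degradation. Fibroblasts of connective tissue, the heart included, secrete IGF1 and several IGFBPs.

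Promoter sequence was taken from RefSeq (GRCm38.p6), 250 bases before to 50 after each start, for 9 of the 10 genes. *Pappa* had no entry. The promoters of *Igfbp5* and *Igfbp3*, the lowest of the genes after knockdown relative to siCtrl, and of *Igfbp6*, the highest, are printed 5′ to 3′ along the gene with motif matches in capitals. The motifs searched on both strands were CATTCC, the element bound by TEAD factors to which VGLL proteins are cofactors, TGACTCA of AP-1 and TATAAA of the TATA box, and no matches overlapped.
Igfbp5: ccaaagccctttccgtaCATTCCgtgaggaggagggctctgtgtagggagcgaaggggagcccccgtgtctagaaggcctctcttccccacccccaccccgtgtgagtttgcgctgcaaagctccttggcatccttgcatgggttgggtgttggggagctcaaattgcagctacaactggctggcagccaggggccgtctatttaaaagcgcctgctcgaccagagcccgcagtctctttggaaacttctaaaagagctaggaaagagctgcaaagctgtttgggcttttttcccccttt
Igfbp3: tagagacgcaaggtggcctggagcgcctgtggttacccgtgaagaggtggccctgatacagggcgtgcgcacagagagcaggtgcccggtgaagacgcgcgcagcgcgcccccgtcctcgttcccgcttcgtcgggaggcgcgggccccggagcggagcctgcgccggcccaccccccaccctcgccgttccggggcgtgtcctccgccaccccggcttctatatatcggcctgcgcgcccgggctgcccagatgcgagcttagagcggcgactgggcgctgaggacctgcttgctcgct
Igfbp6: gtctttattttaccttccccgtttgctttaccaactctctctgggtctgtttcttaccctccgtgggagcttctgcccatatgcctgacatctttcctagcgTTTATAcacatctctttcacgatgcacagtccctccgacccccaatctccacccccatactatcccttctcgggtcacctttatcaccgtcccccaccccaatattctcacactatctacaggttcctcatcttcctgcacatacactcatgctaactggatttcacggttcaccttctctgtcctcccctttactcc
These lie at chr1:72874816-72875115 on the minus strand for *Igfbp5*, chr11:7213874-7214173 on the minus strand for *Igfbp3* and chr15:102143936-102144235 on the plus strand for *Igfbp6*. The *Igfbp5* promoter held CATTCC, starting 233 bases before the start of transcription, and was the only promoter of the 10 searched (*Igfbp2* has 2) with that element, which 14.7% of all 32851 RefSeq promoters hold. The *Igfbp6* promoter held TATAAA on the opposite strand, 148 bases before the start, and the *Igfbp4* promoter held it 28 bases before the start, against 13.6% of all promoters. TGACTCA was found on the opposite strand of a promoter of *Igfbp2*, 39 bases before the start, and in 5.20% of all promoters. The *Igfbp3* promoter held none of the 3 motifs. A match is a description of the letters and not evidence of binding. The study reports no effect of *Tead1* knockdown on fibrotic genes in cardiac myofibroblasts. The part of TEAD factors in the values of the IGF axis was not tested.

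The libraries held 140815237 reads on genes in siCtrl and 125789276 in siVgll3. The targeted gene *Vgll3* stood at 202 TPM in siCtrl against 84.0 TPM in siVgll3, so 41.6% was left. Myofibroblast markers were high in both libraries, with summed TPM of 11328 over 8 genes in siCtrl and 10112 in siVgll3. By the thresholds given below, *Postn*, *Col1a1* and *Tcf21* were lower in siVgll3, and *Cnn1*, *Tagln* and *Thy1* were higher. *Col1a1* went from 4918 TPM in siCtrl to 2631 TPM in siVgll3. The study names *Thy1* and *Tcf21* as fibroblast markers. Of the 7 leukocyte markers, 5 had 0 reads in both libraries, among them *Ptprc*, which encodes CD45. The summed level of the list was 12.1 TPM in siCtrl and 4.27 TPM in siVgll3. Most of that difference was in *Lyz2*, at 10.9 and 3.13 TPM, while *Cd68* was at 1.21 and 1.14 TPM. The 4 endothelial markers summed to 4.81 and 6.61 TPM, and the 3 markers of pericytes and smooth muscle to 0.989 and 0.619 TPM. Of the 5 cardiomyocyte markers, *Myh6*, *Nppa* and *Ryr2* had 0 reads in both libraries, and *Tnni3* had 0 reads in siCtrl and 10 in siVgll3. Only *Tnnt2* passed the filter on A given below, at 60.0 TPM in siCtrl against 10.4 TPM in siVgll3. The 2 mesothelial markers moved apart, *Upk3b* from 31.6 to 9.89 TPM and *Msln* from 1.58 to 5.93 TPM. The part of these cells in the values of the IGF axis was not tested.

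After *Vgll3* knockdown, 4 of the 10 IGF axis genes were lower, 2 were higher and 4 lay between the thresholds. The lower genes were *Igfbp5*, *Igfbp3*, *Igfbp2* and *Igf1*, and the higher genes were *Igfbp6* and *Pappa*. A gene was called lower when M, the log2 ratio of TPM in siVgll3 to TPM in siCtrl, was below −0.5, and higher when M was above 0.5, given that A, log2 of the mean TPM of both libraries, was above 0. All 10 genes passed the filter on A, with at least 627 reads in each library. Over all 11754 genes with A above 0, 11.4% were lower and 5.73% were higher, against 40% and 20% of the 10 genes, of which *Igfbp5* had been chosen for its change. The median M was −0.28 over the 10 genes and −0.05 over all genes. Values in square brackets are 95% Clopper-Pearson intervals of the read ratio placed on the TPM ratio, and they cover counting error only.

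**Figure D1:**
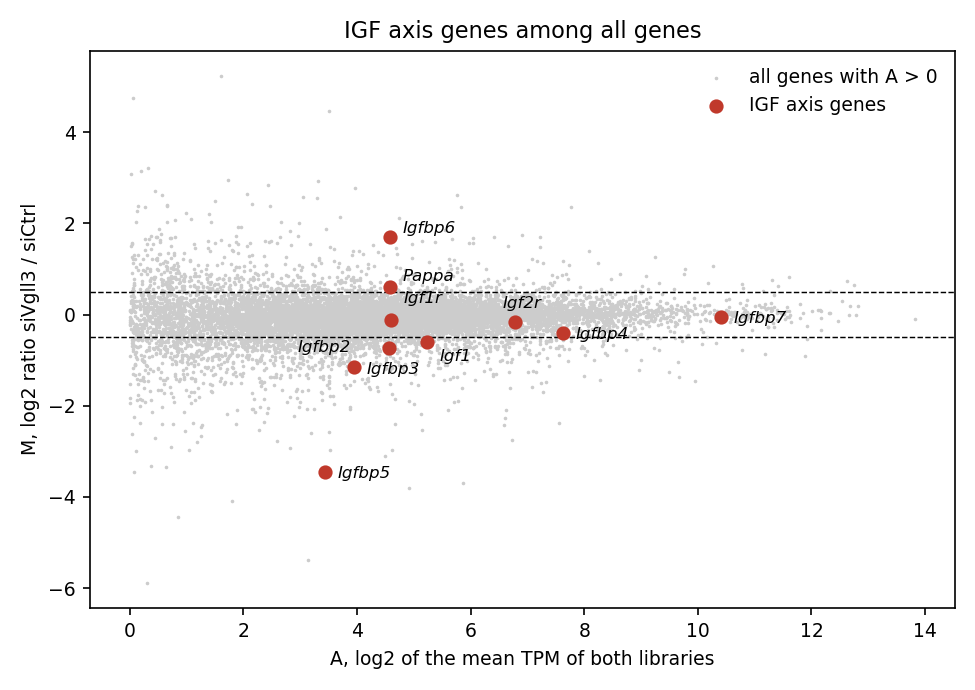
M, the log2 ratio of siVgll3 to siCtrl, is plotted against A, log2 of the mean TPM, with 1 grey point per gene with A above 0 and the 10 IGF axis genes in red. Dashed lines mark M of −0.5 and 0.5, and *Igfbp5* at −3.45 and *Igfbp6* at 1.70 lie farthest from 0 among the red points.

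*Igfbp5* encodes a binding protein that attaches to extracellular matrix and is abundant in mesenchymal tissue. It had 7413 reads in siCtrl and 627 in siVgll3, or 19.8 TPM and 1.81 TPM. Its M was −3.45 [−3.57, −3.34], which leaves 9.13% of the siCtrl level, and its M ranked 7 from the lowest among 11754 genes. Going by level, it was the eighth of the 10 genes in siCtrl and the last in siVgll3.

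*Igfbp3* encodes the main carrier of IGF in blood, which, like IGFBP5, forms a larger complex with the acid-labile subunit. It had 3320 reads in siCtrl and 1376 in siVgll3, or 21.3 and 9.53 TPM, an M of −1.16 [−1.25, −1.07]. *Igfbp3* and *Igfbp5* thus stood close together in siCtrl, and apart in siVgll3. *Igfbp2*, which encodes a binding protein with an integrin-binding motif, had 2502 and 1390 reads, or 29.6 and 17.8 TPM. Its M was −0.73 [−0.83, −0.64].

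*Igfbp6*, whose product prefers IGF2 over IGF1, went the other way. It had 933 reads in siCtrl and 2800 in siVgll3, or 11.3 and 36.8 TPM, an M of 1.70 [1.59, 1.81]. It was 3.24-fold higher in siVgll3, and its M ranked 53 from the highest among 11754 genes. From the lowest level of the 10 genes in siCtrl it moved to the fourth highest in siVgll3.

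The most abundant binding proteins differed least. *Igfbp7*, whose product binds IGF weakly and is found in vessel walls and matrix, stood at 1381 TPM in siCtrl against 1331 TPM in siVgll3, an M of −0.05 [−0.07, −0.04]. *Igfbp4*, whose product is a substrate of PAPP-A, was at 225 and 171 TPM, an M of −0.39 [−0.42, −0.37]. Of the 10 genes *Igfbp4* was the nearest to the threshold of −0.5 from outside, and *Igf1* the nearest from inside.

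**Figure D2:**
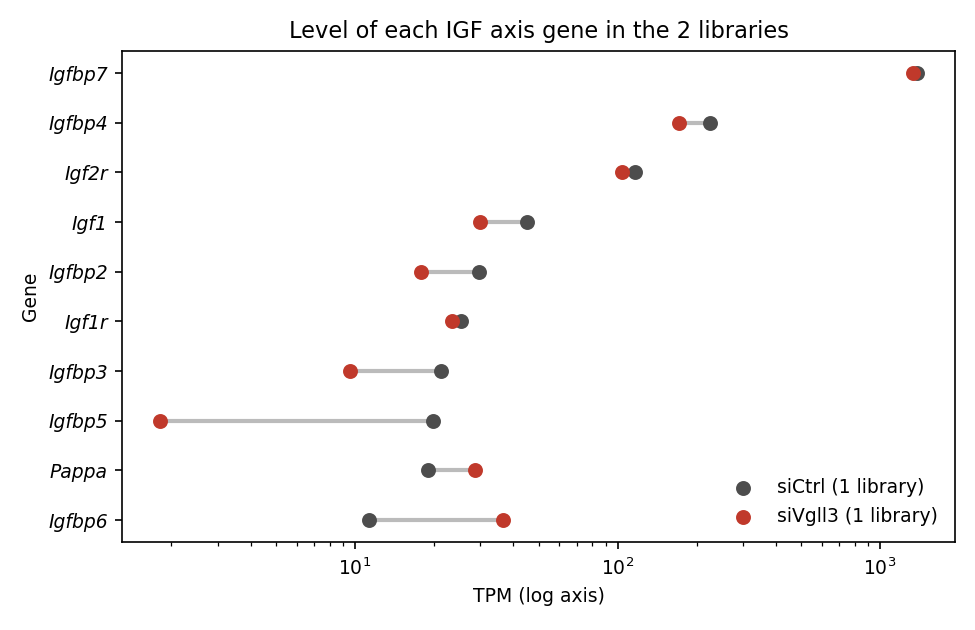
TPM of each of the 10 IGF axis genes on a log axis, with a grey point for the siCtrl library and a red point for the siVgll3 library, ordered by siCtrl. The line between the points is longest for *Igfbp5*, from 19.8 to 1.81 TPM, and *Igfbp6* and *Pappa* have the red point to the right of the grey point.

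*Igf1*, the ligand gene of the set, had 20521 reads in siCtrl and 12531 in siVgll3. It stood at 45.3 TPM in siCtrl against 29.9 TPM in siVgll3, an M of −0.60 [−0.63, −0.57]. The other ligand gene, *Igf2*, was near the filter at 1.09 and 1.45 TPM, an M of 0.42 [0.18, 0.65]. *Igf1* thus supplied most of the IGF ligand mRNA in both libraries, and the insulin genes *Ins1* and *Ins2* had 0 reads in each, where a count of 0 allows up to 3 reads.

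The receptor genes lay between the thresholds. *Igf1r*, the signalling receptor, stood at 25.3 TPM in siCtrl against 23.3 TPM in siVgll3, an M of −0.12 [−0.15, −0.09]. *Igf2r*, the clearance receptor for IGF2 and for proteins tagged with mannose 6-phosphate, was at 117 and 104 TPM, an M of −0.17 [−0.18, −0.15]. The ratio of *Igf2r* to *Igf1r* in TPM was 4.63 in siCtrl and 4.46 in siVgll3.

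*Pappa* encodes PAPP-A, a metalloprotease that cleaves IGFBP4 in the presence of IGF and also IGFBP5. It had 13342 reads in siCtrl and 18700 in siVgll3, or 19.0 and 28.7 TPM, an M of 0.60 [0.57, 0.63]. While *Pappa* was higher and its substrate gene *Igfbp4* had a negative M, the ratio of *Igfbp4* to *Pappa* in TPM was 11.9 in siCtrl and 5.96 in siVgll3. The related protease gene *Pappa2* was under the filter, at 0.489 and 0.396 TPM.

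Summed over the 6 IGFBP genes, TPM was 1687 in siCtrl and 1568 in siVgll3, a log2 ratio of −0.11 (−0.12 to −0.09 for counting error by the delta method). *Igfbp7* made up 81.8% of that sum in siCtrl and 84.9% in siVgll3. Without *Igfbp7*, the sum was 307 TPM in siCtrl and 237 TPM in siVgll3, or 77.3% of siCtrl. *Igfbp4* kept nearly the same share of the remainder, 73.2% in siCtrl and 72.2% in siVgll3. The share of *Igfbp5* went from 6.47% to 0.764%, that of *Igfbp3* from 6.94% to 4.02%, and that of *Igfbp2* from 9.66% to 7.52%. The share of *Igfbp6* went from 3.69% to 15.5%. In TPM, *Igfbp6* stood at 0.571 times *Igfbp5* in siCtrl and at 20.3 times in siVgll3.

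**Figure D3:**
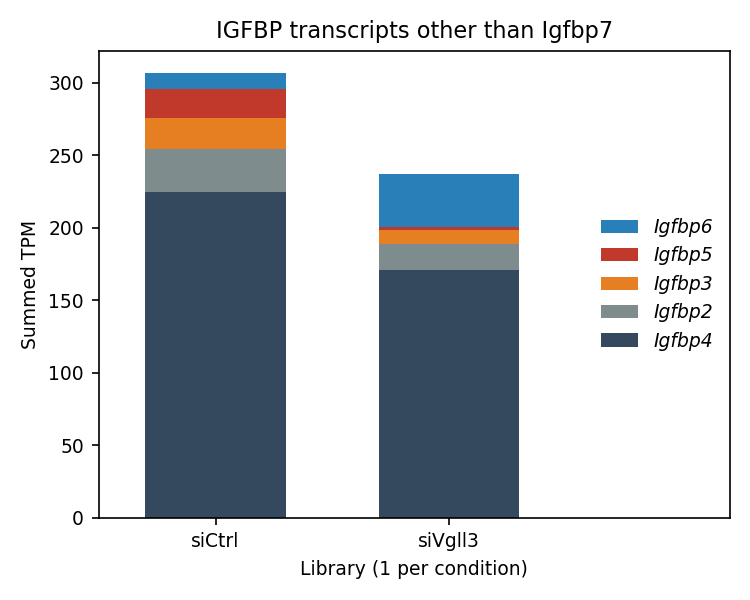
Stacked bars give the summed TPM of the 5 IGFBP genes other than *Igfbp7* in the siCtrl and siVgll3 libraries, 1 library each. The total is 307 TPM in siCtrl and 237 TPM in siVgll3, *Igfbp4* fills most of each bar, and the *Igfbp6* band at the top is taller and the *Igfbp5* band thinner in siVgll3.

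In order of TPM, siCtrl ran *Igfbp7*, *Igfbp4*, *Igf2r*, *Igf1*, *Igfbp2*, *Igf1r*, *Igfbp3*, *Igfbp5*, *Pappa* and *Igfbp6*. In siVgll3 the order was *Igfbp7*, *Igfbp4*, *Igf2r*, *Igfbp6*, *Igf1*, *Pappa*, *Igf1r*, *Igfbp2*, *Igfbp3* and *Igfbp5*. The 3 highest places were held by the same genes in both libraries. Among the closest neighbours were *Igfbp5* and *Pappa* in siCtrl, at 19.8 TPM (19.4 to 20.3 by exact Poisson error) and 19.0 TPM (18.6 to 19.3), so that all neighbours were separate by counting error, while the spread between cultures is not known.

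The IGFBP genes lie partly in pairs. *Igfbp2* (chr1:72824503-72852474, plus strand, GENCODE vM21 on GRCm38) and *Igfbp5* (chr1:72857932-72874884, minus strand) lie tail to tail with 5457 bp between them, and both were lower in siVgll3, by unequal amounts. *Igfbp3* (chr11:7206086-7213923, minus strand) lies 3539 bp from *Igfbp1*, which had 0 reads in both libraries. The gene on the other side of *Igfbp3*, *Tns3*, is 1217728 bp away and was at 111 and 66.0 TPM, an M of −0.75 [−0.77, −0.72]. *Igfbp6* (chr15:102144362-102149511, plus strand) has *Soat2* 1014 bp beyond its end, at 0.769 and 0.653 TPM and thus under the filter on A, and *Spryd3* 8127 bp before it, at 44.5 and 39.7 TPM with an M of −0.17 [−0.22, −0.12]. Next to *Pappa* (chr4:65124174-65357509, plus strand), *Astn2* was at 1.67 and 1.09 TPM, an M of −0.62 [−0.83, −0.42], and *Tnc* on the other side, 1077158 bp away, was at 234 and 311 TPM, an M of 0.41 [0.40, 0.43]. *Pgpep1l*, 2941 bp from *Igf1r*, was at 2.85 and 4.74 TPM, an M of 0.73 [0.45, 1.02]. Of the 10 flanking protein-coding genes with A above 0 that are no IGF axis genes, 2 were lower and 1 was higher. Over all genes tested, 11.4% were lower and 5.73% were higher. M was negative in 5 of the 10 and positive in 5, and negative in at least 6689 of all 11754 genes tested. The flanking genes not named above, *Rpl37a*, *Noa1*, *Adgrl3*, *Ttc23* and *Top2a*, had M of 0.02, 0.01, 0.31, −0.13 and −0.05.

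Of the 10 genes, only *Igfbp7* shares exon sequence with another annotated gene, *Polr2b* on the opposite strand. The library kit keeps strand, but whether the counting used it is not given in the sources used here. *Polr2b* had 13313 reads in siCtrl and 12041 in siVgll3, against 99094 and 88474 for *Igfbp7*. *Igf2r* overlaps the antisense RNA *Airn* outside its exons, and *Airn* had 414 and 356 reads.

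The microRNA miR-29b is also a subject of the study, so the annotated 3′ UTRs were searched for TGGTGCT, the match to its seed. Mature mouse miR-29b-3p is printed with its seed, bases 2 to 8, in capitals, and is followed by stretches of 30 bases around the matches in *Igf1* and *Igfbp4*, with each match in capitals.
miR-29b-3p: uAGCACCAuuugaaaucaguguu
Igf1, first site: ttttagtacaaTGGTGCTattttgtagttt
Igf1, second site: ctacgccaatgTGGTGCTattgtttcttta
Igfbp4, both sites: catgtgtcaccTGGTGCTcacTGGTGCTct
The *Igf1* stretches lie at chr10:87931660-87931689 and chr10:87934294-87934323, and the *Igfbp4* stretch at chr11:99053212-99053241, all on the plus strand of GRCm38. Matches were found in 2 of the 10 genes, or 20%, against 16.1% of the 11080 genes with A above 0 and an annotated 3′ UTR, taking the longest 3′ UTR of each gene. *Igf1*, with a match, was lower at an M of −0.60, and *Igfbp4*, with a match, lay between the thresholds at −0.39. Of the 10 genes 8 had a negative M, as did at least 6689 of the 11754 genes tested. *Igfbp5*, with a 3′ UTR of 4445 bases, and *Igfbp3*, with 1435 bases, held no match. The part of miR-29b in the values of any of these genes was not tested. Levels of miR-29b were not measured in these libraries. In separate qRT-PCR experiments the study reports higher miR-29b, and also higher miR-29a, in cardiac myofibroblasts after *Vgll3* knockdown.

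The genes most like *Igfbp5* over the 2 libraries, by distance between log2 TPM values, were *Abca8a*, *Irf7*, *Ifit1*, *Rtp4* and *Snurf*. *Abca8a* was the nearest, at 20.4 TPM in siCtrl and 2.61 TPM in siVgll3, a distance of 0.53 on the log2 scale. *Snurf*, the farthest of the 5, was at 12.2 and 2.60 TPM, a distance of 0.87. With 2 libraries such likeness rests on 2 values per gene.

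Among 68 further genes of the pathway, 58 had A above 0, of which 8 (13.8%) were lower and 6 (10.3%) were higher, against 11.4% and 5.73% over all genes tested, so that the share of lower genes was near that of all genes. With CPM, TMM scaling or DESeq2 size factors, 6 of 59 were lower and 6 higher, and with centred M 6 of 58 were lower and 6 higher. For CPM, 1182 of all 11806 genes were lower and 751 higher. With A above 2, 6 of 49 were lower and 2 higher, against 928 and 393 of 9938 over all genes. The share of higher genes was then near that of all genes too. The median M of the 58 pathway genes was −0.12. The highest share of calls was in the list of other genes with an IGFBP-type domain. Of its 6 genes with A above 0, 2 were lower and 3 were higher. *Htra1*, a secreted serine protease, stood at 133 TPM in siCtrl against 234 TPM in siVgll3, an M of 0.81 [0.79, 0.84]. Its relatives moved apart, with *Htra4* at 1.49 and 4.63 TPM, an M of 1.63 [1.40, 1.87], and *Htra3* at 6.28 and 3.12 TPM, an M of −1.01 [−1.17, −0.85]. *Esm1*, an endothelial proteoglycan gene, had an M of 1.56 [1.28, 1.84] at 1.12 and 3.29 TPM, and *Kazald1* an M of −1.31 [−1.56, −1.06] at 5.48 and 2.21 TPM. *Crim1* was at 73.9 and 84.2 TPM, an M of 0.19.

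Of the 4 proteases of binding proteins and protease inhibitors with A above 0, 2 were lower and 1 was higher. Over all genes tested, the shares were 11.4% and 5.73%. *Adam12*, which cleaves IGFBP3 and IGFBP5, stood at 79.0 TPM in siCtrl against 48.1 TPM in siVgll3, an M of −0.71 [−0.74, −0.69]. *Adamts1* was at 117 and 72.9 TPM, an M of −0.68 [−0.70, −0.66]. The PAPP-A inhibitor genes *Stc1* and *Stc2* had M of 0.57 [0.32, 0.81] and 0.00, and *Stc2*, at 16.4 and 16.5 TPM, was the more abundant of the pair.

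All 8 genes of growth hormone signalling, the main inducer of IGF1 in liver, lay between the thresholds, as did 9739 of the 11754 genes tested, with M from −0.34 to −0.04. Their most abundant members were *Ghr*, the growth hormone receptor gene, at 104 and 95.2 TPM, and the feedback inhibitor gene *Socs2* at 64.9 and 51.3 TPM. The insulin receptor gene *Insr* was at 9.97 and 8.05 TPM, an M of −0.31 [−0.36, −0.25]. Downstream of the receptor, 1 of 10 adaptor genes was lower and 0 were higher, against 11.4% and 5.73% of all genes tested. The lower gene was *Ptpn11*, which encodes the phosphatase SHP2, at 120 and 48.3 TPM and an M of −1.31 [−1.33, −1.28]. By the mean of both libraries, *Shc1* and *Grb10* were the most abundant adaptor genes and had M of −0.16 and −0.22.

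Of 16 genes of the PI3K, AKT and FOXO list, 2 (12.5%) were lower and 1 (6.25%) was higher, near the 11.4% and 5.73% of all genes tested. The genes of the regulatory subunits of PI3K moved apart, *Pik3r1* from 19.9 to 36.1 TPM with an M of 0.86 [0.82, 0.89] and *Pik3r2* from 50.9 to 35.1 TPM with an M of −0.54 [−0.58, −0.49]. *Phlpp2*, an AKT phosphatase gene, was at 5.00 and 3.44 TPM, an M of −0.54 [−0.63, −0.45]. Neither *Pik3r2* nor *Phlpp2* was past −0.5 with CPM, where M was −0.48 and −0.49, and the interval of each spans −0.5. *Akt1* and *Inppl1*, the most abundant of the list, had M of 0.25 and −0.28. Of 9 mTOR genes 1 (11.1%) was lower, near the 11.4% of all genes tested. It was *Deptor*, an mTOR inhibitor gene, at 4.25 and 2.07 TPM and an M of −1.04 [−1.15, −0.93]. *Eif4ebp1* and *Rheb* had M of −0.15 and 0.15. Of the 3 genes of IGF2 mRNA-binding proteins 1 was higher, against 5.73% of all genes tested. It was *Igf2bp1*, at 1.22 and 2.12 TPM and an M of 0.80 [0.66, 0.94], while *Igf2bp2* and *Igf2bp3* had M of 0.34 and −0.20.

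**Figure D4:**
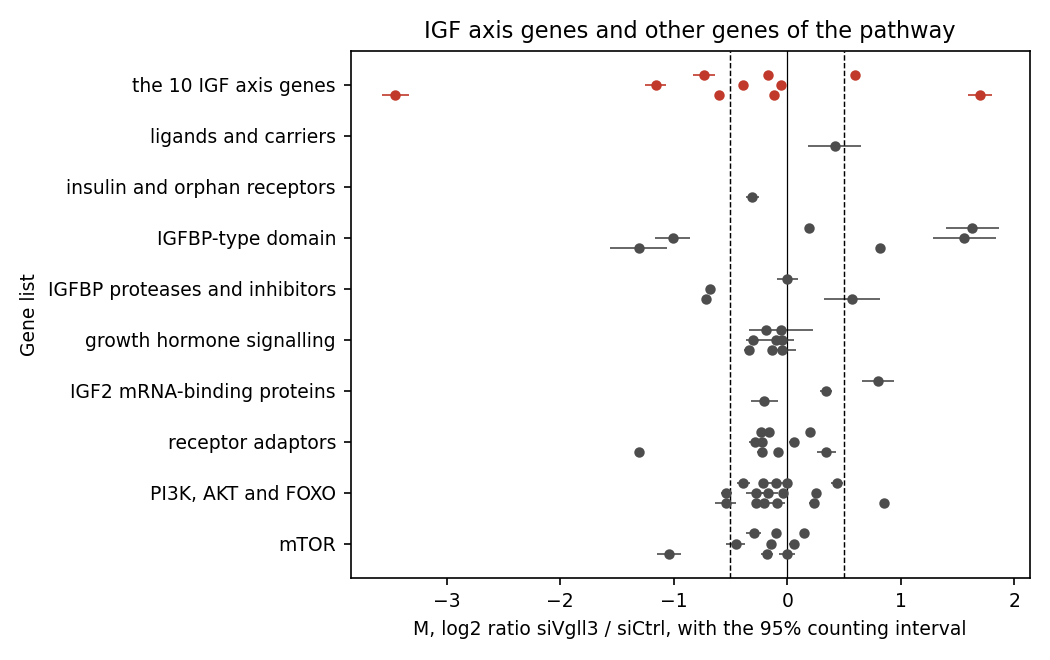
M of the 10 IGF axis genes (red) and of the 58 other pathway genes with A above 0 (grey), by list, with 95% counting intervals as bars and dashed lines at −0.5 and 0.5. The small vertical offsets within a list only keep points apart. The IGF axis genes span −3.45 to 1.70, while the growth hormone signalling list stays between the dashed lines.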

How the data were processed

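Total RNA of each culture was made into a TruSeq Stranded mRNA library and read on a NovaSeq instrument. The submitters' processing notes name FastQC, Trimmomatic, HISAT2, StringTie and the build mm10, without versions. The authors deposited raw read counts per gene, with no normalization, and TPM, which they had normalised for gene length and library size. TPM was listed for 14158 genes. No pseudocount was added. M, A and the counting interval were computed with Python 3.11.15, numpy 2.4.6 and scipy 1.17.1. The code of the interval was run on simulated Poisson reads, which have the counting error it assumes. That run says nothing about the spread between cultures. TMM factors (edgeR 4.0.16) and size factors (DESeq2 1.42.0) served as alternative scalings only, since 1 library per condition allows no test. For the 10 genes, M from TPM lay 0.05 below M from CPM. The genes and pathway lists were chosen with earlier results of these data known. Genes named were the 10, *Vgll3*, the 5 nearest to *Igfbp5* (predicted, Rik and microRNA genes left out), and from each list those past a threshold and the 2 most abundant. Marker genes, overlapping and neighbouring genes, *Pappa2*, *Stc2* and genes without reads were named beside them after their values were seen. Protein sequences were not used here.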

Additional observations from a re-analysis of the deposited data

How the results depend on the processing

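No paired analysis was possible because there is a lone library for each treatment. The same 4 lower and 2 higher IGF axis genes were called with CPM, TMM scaling or DESeq2 size factors in place of TPM. They were also called with 0.1 or 1 TPM added, and after the median M of all genes was subtracted. Limiting calls to genes whose entire interval passed 0.5 left them the same. The settings of at least 10 reads in each library, A above 2 and no filter on A could not change these calls. All 10 genes had at least 627 reads in each library, and the lowest A among them was 3.44. A threshold of 1 on M, a higher bar by construction, left 2 lower genes (*Igfbp3* and *Igfbp5*) and 1 higher gene (*Igfbp6*), and left 4 lower and 2 higher of the other pathway genes. Over all genes, calls numbered 1341 lower and 674 higher in the report, 384 and 207 with the threshold of 1, 2103 and 1428 without the filter on A, and 977 and 442 by entire intervals, and 393 were higher with A above 2. With A above 2, where fewer genes are tested, 2 of 49 other pathway genes were higher, against 393 of 9938 over all genes. Over the 6 changes of scaling or pseudocount, the M of each gene kept its sign in 60 of 60 values. An added TPM cannot change a sign. The scalings moved M of the 10 genes by nearly the same amount, so only the sign of *Igfbp7*, nearest to 0, was open to change. The M of *Igfbp5* ranged from −3.45 to −2.89, the latter with 1 TPM added, and that of *Igfbp7* came as near to 0 as −0.0007 with CPM. The log2 ratio of the summed IGFBP level was −0.0612 after subtraction of the median. It was −0.14 with CPM, −0.15 with TMM scaling and −0.15 with DESeq2 size factors. These last sums hold reads not corrected for gene length, so the genes weigh otherwise than in summed TPM, and they do not show scaling alone. The genes with few reads, *Igfbp5* in siVgll3 and *Igfbp6* in siCtrl, have the widest counting intervals, and no depth replaces a second culture.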
